A study of Drosophila melanogaster with 2 samples.

Results

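The genes examined here encode the proteins of the cytosolic ribosome, the machine that translates nuclear-encoded mRNAs. They were chosen by FlyBase symbol: every gene whose symbol begins with RpL or RpS followed by a digit, P or a hyphen, together with sta, which encodes small-subunit protein SA. The rule names 93 genes, of which 85 are among the 12083 genes with at least 1 read in either library. The RNA was that of whole adult heads of white-eyed w1118 flies (Drosophila melanogaster). The sucralose group was kept for 6 days on the control diet with added sucralose, a chlorinated sweet-tasting sugar derivative with almost no usable energy, and the control group for 6 days on the control diet alone. Both groups began their diets at 4 to 7 days of age and were collected at 10 to 14 days, and they carried no transgene that the labels name. With 1 library per diet the replicate spread is unknown, so the diets were not tested and no p-value is given. The study's title concerns food intake on sucralose, neuropeptide Y and a fasting response in neurons.

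A cytosolic ribosome has a large subunit, which joins amino acids, and a small subunit, which reads the mRNA. Nearly every ribosomal protein is present in a single copy per ribosome, the genes are among the most strongly transcribed in any growing cell, and in flies the loss of 1 copy of many of them gives the slow-growing Minute phenotype. Nutrient signalling through the kinase TOR adjusts how much ribosomal protein a cell makes, mainly by controlling the translation of these mRNAs. Some fly ribosomal proteins have a duplicated gene, and the duplicates are often expressed mainly in the germline.

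Unique reads summed to 10.4 M in the sucralose library (11588 genes) and to 10.3 M in the control library (11521 genes). Levels are given as reads per kilobase of gene model, scaled to library size (RPKM), as deposited by the authors, and are compared between genes only on that scale. Folds are the sucralose library over the control library, computed from read counts scaled by TMM, the trimmed mean of M-values. Their 95% intervals are exact conditional binomial (Clopper-Pearson) intervals that cover counting error only and compare these 2 libraries, not the diets. Lists are summarised as medians of log2 differences of library-scaled counts (CPM) plus 0.5, over members with 50 or more reads in the 2 libraries together, and 2 marks are used on that scale: at least 25% higher or 20% lower, and at least 1.5-fold in either direction. In bulk RNA, fewer cells of a type and less RNA per cell cannot be told apart. Markers of other cell types differed between the same libraries, with summed folds of 1.33 for 12 photoreceptor genes, 0.902 for the 7 neuronal genes with reads, 0.636 for 8 glial genes, 0.689 for 8 muscle genes, 1.02 for 5 fat body genes (mostly reads of apolpp), 0.878 for the 4 hemocyte genes with reads and 0.0298 for 7 gut genes (52 reads in the sucralose and 1710 reads in the control library). Single genes were above 0 for 12 of 12 photoreceptor, 1 of 7 neuronal, 2 of 8 glial, 0 of 8 muscle, 2 of 4 fat body, 2 of 4 hemocyte and 0 of 6 gut genes past the floor. Over all genes past the floor, 49.6% were above 0. The fat body median was -0.21, with Lsp2 at 0.177-fold and Lsd-1 at 0.731-fold, and it was 0.02 with no floor. The photoreceptor genes took 10.0% of sucralose and 7.50% of control reads. The part of these cell types in the results below was not tested.

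The genes were divided by rule into main genes and lower paralogues. For each protein, the gene with the highest mean RPKM over both libraries was taken as the main gene. This gave 74 main genes, 44 of the large and 30 of the small subunit, and 11 lower paralogues. All 74 main genes passed the floor of 50 reads, as did 6 of the 11 paralogues, so 80 members were compared. The other 8 of the 93 genes (RpL10Aa, RpL19, RpL27A, RpL31, RpL37-2, RpS10b, RpS12 and RpS28a) matched no identifier in the files and are not analysed here. RpS10a, with 1 read in each library, was placed with the paralogues after its values were seen, because its partner RpS10b was among the unmatched genes.

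Main genes were abundant, within a narrow range for genes of such different size. Their high level is in part how they were chosen, since each had the highest mean RPKM of its protein and needed 100 RPKM. Their RPKM ran from 347 to 1509 in the sucralose library, a 4.34-fold range with a median of 825, and from 284 to 1280 in the control library, a 4.50-fold range with a median of 715. Over all genes past the floor the median was 17.0 RPKM in each library. Of the 74 main genes, 73 stood among the 200 genes of highest RPKM in the sucralose library and 71 in the control library. The subunits lay close together, with median RPKM in the sucralose library of 810.0 for the large and 844 for the small subunit, and in the control library of 699 and 730.1. Together the members took 4.97% of the reads of the sucralose library and 4.29% of those of the control library.

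The most abundant member was RpL41, which encodes a very short basic peptide at the interface of the subunits, with 1509 RPKM in the sucralose and 1280 RPKM in the control library. RpL7A followed with 1390 and 1137 RPKM in the sucralose and control libraries. RpS29, a zinc-binding protein of the small-subunit head, had 1226 RPKM in the sucralose and 925 RPKM in the control library. Next in order of mean level stood RpL23, with 1101 and 1006 RPKM, and RpL39, a small protein that lines the exit tunnel of the nascent chain, with 1105 and 983 RPKM, sucralose library first. The order given is that of the mean of both libraries and differs within each. RpS29 stood below RpL23 and RpL39 in the control library, and RpLP1 (1175 RPKM) stood above both in the sucralose library. RpL23 and RpL39 also exchanged places between the libraries, so the order below RpL7A is not fixed by these data. At the other end, RpS21 was the least abundant main gene in both libraries, at 347 RPKM in the sucralose and 284 RPKM in the control library.

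The rank of the genes was nearly the same on both diets, with Spearman's rho of 0.958 between the RPKM of the 2 libraries across the 74 main genes, which share library, depth and gene length and are not independent replicates. Longer gene models had somewhat lower RPKM (rho -0.32 across the same genes). Reads covered a median of 97.3% of the bases of a main gene's model in the sucralose library and 95.5% in the control library. The least covered was RpL37-1, at 57.2% and 61.2%, so its RPKM of 548 in the sucralose and 440.4 in the control library divides by a model that reads covered only in part.

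**Figure D1:**
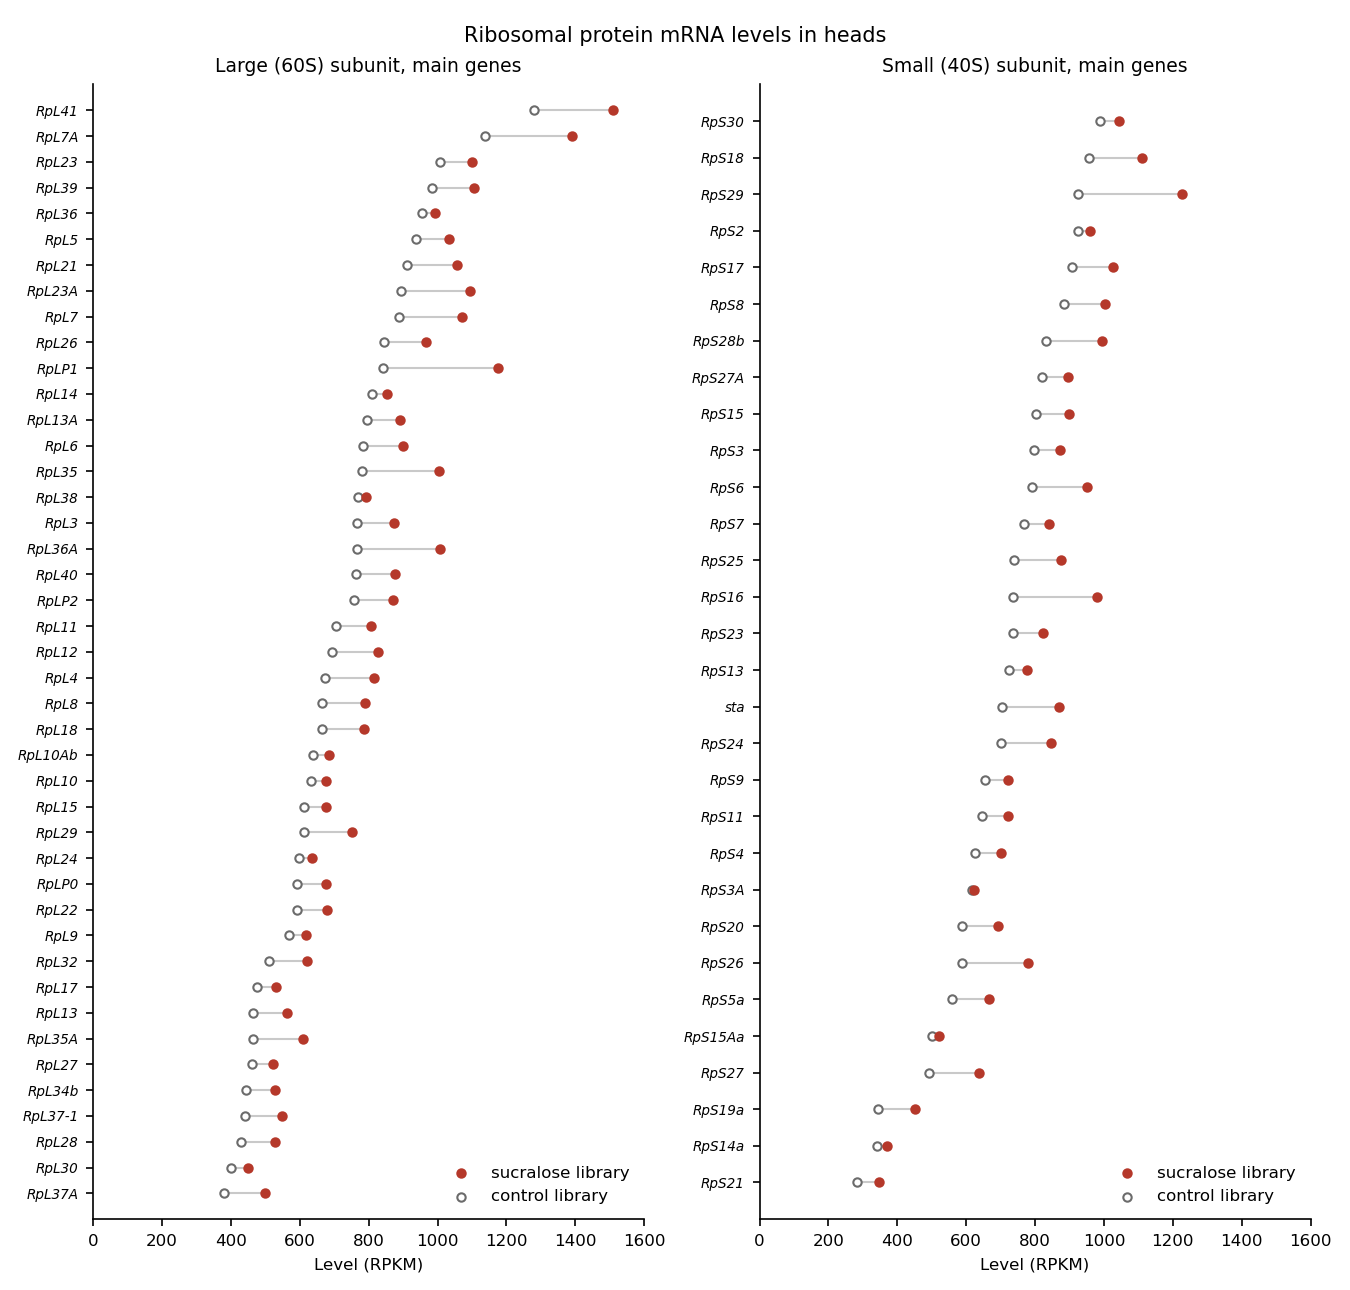
Levels of 73 of the 74 main ribosomal protein genes in RPKM (x axis) for the large subunit (left) and small subunit (right), 1 row per gene ordered by control level. Filled red points are the sucralose library and open grey points the control library; in every row the sucralose point lies to the right, by the least for RpS3A (623 and 616 RPKM, sucralose and control).

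All 74 main genes were higher in the sucralose library, each by a small amount. Over the 80 members compared, 76 (95%) had a log2 difference above 0 and 4 below it, against 49.6% above and 50.4% below among the 8889 genes past the floor. The median log2 difference was 0.19 (1.14-fold), beside a median of -0.00 over all genes. Summed over all members there were 518564 reads in the sucralose and 440541 reads in the control library, a fold of 1.15 (1.15 to 1.16). The sizes were modest: 11 of the 80 members (13.8%) were at least 25% higher, against 8.44% of all genes past the floor, and none reached 1.5-fold, against 1.96%. No member was at least 20% lower, against 11.4% of all genes, and none 1.5-fold lower, against 4.12%. The counting interval lay wholly above 1 for 70 members and wholly below 1 for none, against 17.3% and 19.0% of all genes. Ribosomal protein genes have more reads than most, which narrows their intervals: the median half-width was 0.05 on the log2 scale for members and 0.21 over all genes. The same difference in depth bears on the shares past the fold marks, since counting error carries genes with few reads past a mark more readily.

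Both subunits were shifted by about the same amount. The 44 main large-subunit genes had a median log2 difference of 0.20, with lower and upper quartiles of 0.16 and 0.28, and a summed fold of 1.16 (1.16 to 1.17). The 30 main small-subunit genes had a median of 0.17, with quartiles of 0.13 and 0.27, and a summed fold of 1.15 (1.14 to 1.15). Whether the subunits differ could not be tested with 1 library per diet. At least 25% higher were 6 of the 44 large-subunit genes (13.6%) and 5 of the 30 small-subunit genes (16.7%), against 8.44% of all genes.

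**Figure D2:**
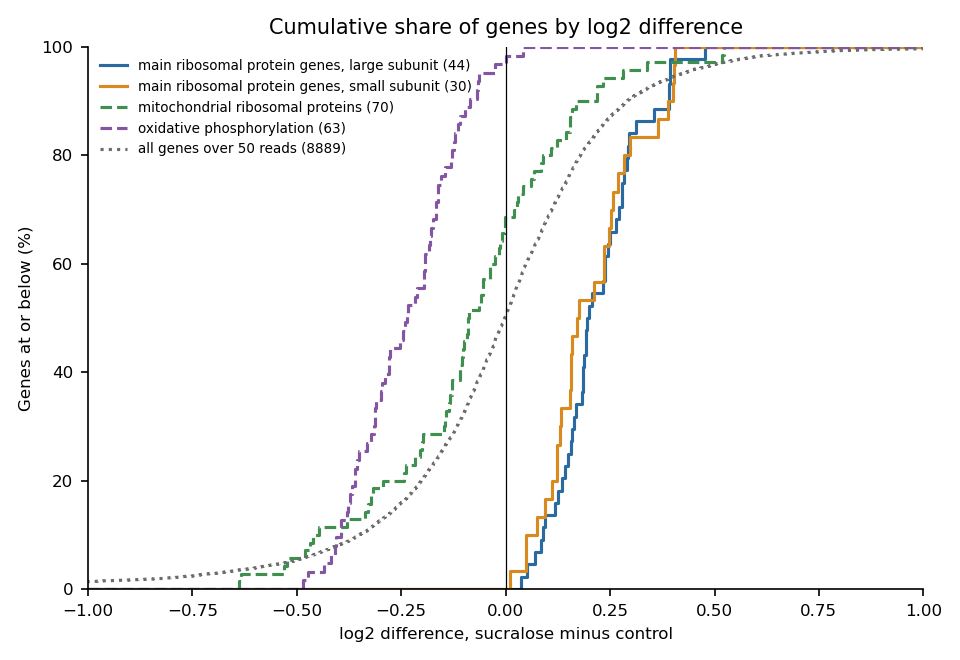
Cumulative percentage of genes (y axis) at or below each log2 difference, sucralose minus control (x axis, shown from -1 to 1). Solid lines are the 44 large-subunit and 30 small-subunit main genes, which start above 0 and have medians of 0.20 and 0.17; dashed lines are mitochondrial ribosomal protein genes (70, median -0.09) and oxidative phosphorylation genes (63, median -0.24), and the dotted line is all 8889 genes past the floor (median -0.00).

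Main genes differed among themselves by more than counting error. The standard deviation of their log2 differences was 0.11, and the median half-width of a gene's 95% interval was 0.05. Against the fold of their summed reads, 1.16, 23 genes had intervals wholly above it, 26 wholly below it and 25 holding it. The log2 difference showed little relation to gene model length (rho -0.05) or to control RPKM (rho -0.16) across the 74 genes.

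The highest fold belonged to RpLP1, an acidic protein of the stalk that recruits and activates the translation factor GTPases. It had 9408 reads (1175 RPKM) in the sucralose library and 6633 reads (841 RPKM) in the control library, a fold of 1.39 (1.35 to 1.44). The folds of the other stalk proteins were smaller. RpLP2, the partner with which RpLP1 forms dimers, had 872 RPKM in the sucralose and 757 RPKM in the control library, a fold of 1.15 (1.10 to 1.19). RpLP0, the base on which those dimers sit, had 675 and 592 RPKM in the sucralose and control libraries and a fold of 1.14 (1.10 to 1.17). RpL12, at the foot of the stalk, had 828 RPKM in the sucralose and 694 RPKM in the control library (1.19-fold, 1.15 to 1.23). The interval of RpLP1 thus did not overlap those of its 3 neighbours in the stalk.

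Behind RpLP1 stood a tight group of genes with folds between 1.31 and 1.32. Of these, RpS16, whose protein reaches the tRNA in the peptidyl site, had 978 RPKM in the sucralose and 736 RPKM in the control library (1.32-fold, 1.27 to 1.38). RpS26, which lines the path of the mRNA as it leaves the small subunit, had 779 RPKM in the sucralose and 587 RPKM in the control library (1.32-fold, 1.28 to 1.37). RpS29 was 1.32-fold higher (1.27 to 1.37). Their intervals overlapped widely, so no order among these 3 is given.

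The same group held RpS19a and genes of the large subunit. RpL36A, near the tRNA exit site, had 1008 RPKM in the sucralose and 765 RPKM in the control library (1.31-fold, 1.26 to 1.37). RpL37A had 499.5 RPKM in the sucralose and 379 RPKM in the control library (1.31-fold, 1.249 to 1.379), and RpL35A 609 and 463 RPKM in the sucralose and control libraries (1.31-fold, 1.249 to 1.376). RpS19a encodes a protein of the small-subunit head whose human counterpart is mutated in Diamond-Blackfan anaemia. It had 452 RPKM in the sucralose and 344 RPKM in the control library (1.31-fold, 1.2504 to 1.372). Also at least 25% higher were RpS27 (1.29-fold, 1.23 to 1.35) and RpL35, a protein at the mouth of the exit tunnel (1.28-fold, 1.23 to 1.33), both picked outside the naming rule.

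The smallest differences among main genes were at or near the counting limit. RpS3A, a small-subunit protein on the platform side, had 8765 reads (623 RPKM) in the sucralose and 8536 reads (616 RPKM) in the control library, a fold of 1.01 (0.978 to 1.04). RpL38 had 792 and 769 RPKM in the sucralose and control libraries (1.03-fold, 0.976 to 1.08). RpS15Aa had 521 and 502 RPKM in the sucralose and control libraries (1.04-fold, 0.990 to 1.08). RpL36 had 994 RPKM in the sucralose and 956 RPKM in the control library (1.04-fold, 0.999 to 1.07). These 4 were the main genes whose interval included 1. RpS2, beside the mRNA entry channel, was barely apart from 1 (1.04-fold, 1.01 to 1.07), with 960.2 RPKM in the sucralose and 924 RPKM in the control library.

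**Figure D3:**
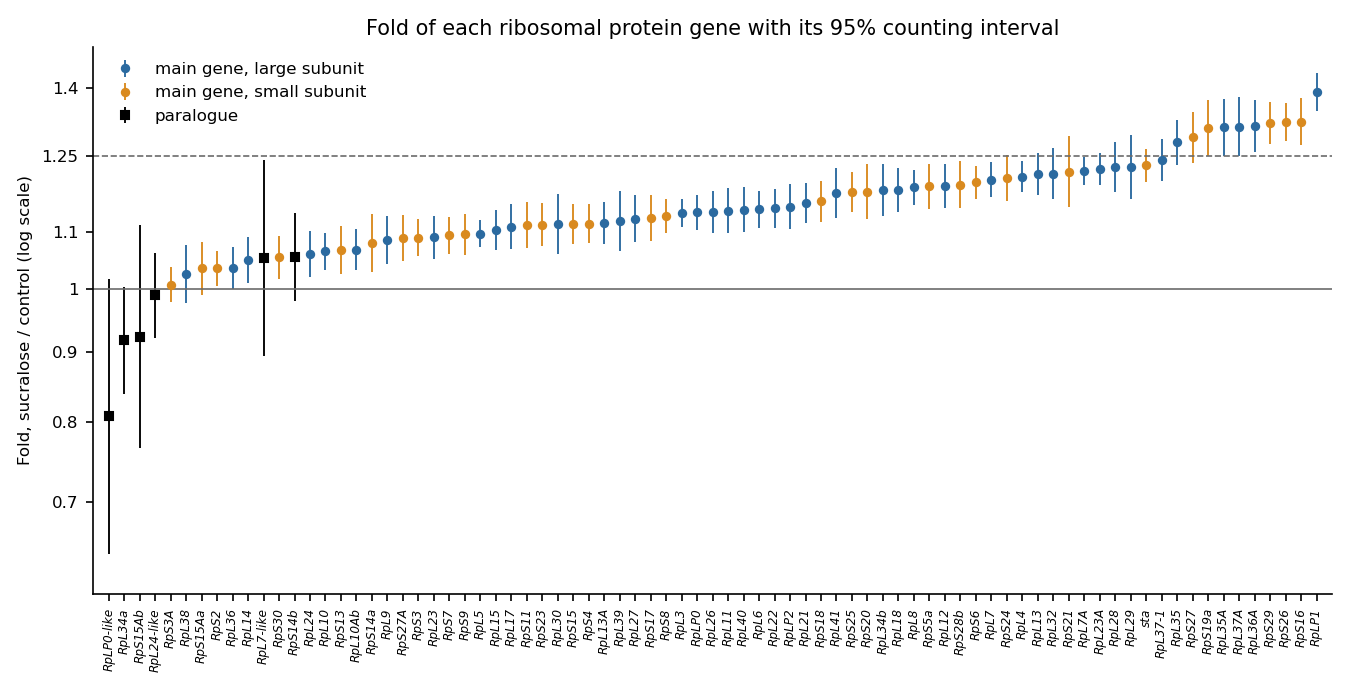
Fold of 79 of the 80 members past the floor, sucralose over control (y axis, log scale), in rising order (x axis), with 95% counting intervals as vertical bars; blue and orange circles are main genes of the large and small subunit and black squares are paralogues. The solid line marks a fold of 1 and the dashed line a level 25% above it: all 73 main genes drawn lie above 1, RpLP1 is the highest at 1.39, and 4 of the 6 paralogues lie below 1, of which RpL24-like is above it with totals that leave out the 20 most abundant genes.

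Grouped by their place in the ribosome, summed folds ranged from the stalk and the mRNA exit, which stood highest, to the decoding site. The 4 stalk genes had a summed fold of 1.22 (1.20 to 1.24), which RpLP1 leads. By median log2 difference the stalk (0.22) stood below the mRNA exit (0.25) and the exit tunnel (0.23). At the mRNA exit, RpS5a, RpS14a, RpS26 and RpS28b together had a summed fold of 1.22 (1.20 to 1.24), with single folds from 1.08 for RpS14a to 1.32 for RpS26. The 6 measured genes of the exit tunnel (RpL4, RpL17, RpL23A, RpL26, RpL35 and RpL39) had a summed fold of 1.19 (1.17 to 1.21). The 5 genes of the mRNA entry channel and decoding site (RpS2, RpS3, RpS9, RpS23 and RpS30) had the lowest summed fold of the 6 groups drawn up, 1.07 (1.06 to 1.09), and the highest of them, RpS23, was at 1.11-fold. RpS3, which helps unwind mRNA at the entry and also acts in ribosome quality control, had 871 RPKM in the sucralose and 797 RPKM in the control library (1.09-fold, 1.06 to 1.12). These groups were drawn up with the values known and each holds few genes, so they describe these libraries and nothing is called particular to a group.

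RpL5 and RpL11 join the 5S ribosomal RNA in a particle that is added to the large subunit during its assembly, and in mammals the free particle restrains the p53 inhibitor MDM2. RpL5, the member with most reads, had 16712 reads (1032 RPKM) in the sucralose and 14942 reads (937 RPKM) in the control library, a fold of 1.10 (1.07 to 1.12). RpL11 had 805 RPKM in the sucralose and 704 RPKM in the control library (1.14-fold, 1.10 to 1.18). The interval of RpL5 lay below the 1.16 of the summed main genes, while that of RpL11 held it.

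RpS27A and RpL40 are made as fusions to ubiquitin, which is cleaved off after translation. RpS27A had 897 RPKM in the sucralose and 820.0 RPKM in the control library (1.09-fold, 1.05 to 1.13), and RpL40 had 877 and 765 RPKM in the sucralose and control libraries (1.14-fold, 1.10 to 1.19). RpS6, the small-subunit protein phosphorylated by S6 kinase downstream of TOR, had 950.4 RPKM in the sucralose and 792 RPKM in the control library (1.20-fold, 1.16 to 1.23). The gene sta had 869 RPKM in the sucralose and 704 RPKM in the control library (1.23-fold, 1.20 to 1.26).

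In contrast to the main genes, the paralogues showed no shared direction. Of the 6 that passed the floor, 2 were above 0 and 4 below (RpL24-like is above 0 with totals that leave out the 20 most abundant genes), the median log2 difference was -0.06, and every counting interval included 1. The 11 paralogues together had 4676 reads in the sucralose and 4640 reads in the control library, a fold of 0.989 (0.949 to 1.03), and this interval does not reach the 1.16 of the summed main genes. Most of these reads came from few genes: in the sucralose library RpL24-like had 1560, RpS14b 1487 and RpL34a 944. The folds of their main genes were 1.06 for RpL24, 1.08 for RpS14a and 1.18 for RpL34b. The set is also mixed, since RpL24-like, RpL7-like and RpLP0-like have assembly factors as yeast counterparts. Paralogues have fewer reads, with a median interval half-width of 0.18 on the log2 scale, so a shift of the size seen in main genes would not be detectable for the scarcest of them taken singly.

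RpL34a and RpL34b code for the same large-subunit protein, and their folds lay on opposite sides of 1. RpL34a had 944 reads (146 RPKM) in the sucralose and 1009 reads (158 RPKM) in the control library, a fold of 0.918 (0.839 to 1.004). RpL34b had 4555 reads (527 RPKM) in the sucralose and 3788 reads (445 RPKM) in the control library, a fold of 1.18 (1.13 to 1.23). RpL34a thus took 17.2% (exact interval 16.2% to 18.2%) of the pair's unique reads in the sucralose library and 21.0% (19.9% to 22.2%) in the control library. These intervals do not overlap, and they cover counting error only.

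RpS14a and RpS14b neighbour each other in the genome and code for the same small-subunit protein, so reads from their shared sequence may have been dropped or divided by the counting of unique reads. RpS14a had 371 RPKM in the sucralose and 342 RPKM in the control library (1.08-fold, 1.03 to 1.13). RpS14b had 237 RPKM in the sucralose and 224 RPKM in the control library (1.05-fold, 0.980 to 1.14). Its share of the pair's reads was 30.5% (29.2% to 31.8%) in the sucralose and 31.0% (29.6% to 32.3%) in the control library. For RpS15Ab, the lower copy of RpS15Aa, the counts were 223 reads in the sucralose and 237 reads in the control library (0.923-fold, 0.765 to 1.11), a share of 5.28% and 5.89% of its pair, sucralose library first.

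The genes RpL24-like, RpL7-like and RpLP0-like are related in sequence to ribosomal proteins, but their yeast counterparts are assembly factors of the large subunit that leave before it is finished. RpL24-like had 1560 reads (173 RPKM) in the sucralose and 1547 reads (174 RPKM) in the control library, a fold of 0.989 (0.922 to 1.06), whereas RpL24 itself had 637 and 598 RPKM in the sucralose and control libraries and a fold of 1.06 (1.02 to 1.10). RpLP0-like had 140 reads in the sucralose and 170 reads in the control library (0.808-fold, 0.641 to 1.02), the lowest fold of any member past the floor. Its share of the reads of RpLP0 and RpLP0-like together was 1.48% (1.24% to 1.74%) in the sucralose and 2.06% (1.77% to 2.39%) in the control library, and these intervals do not overlap. RpL7-like had 306 reads in the sucralose and 285 reads in the control library (1.05-fold, 0.893 to 1.24), while RpL7 had 1071 RPKM in the sucralose and 889 RPKM in the control library (1.20-fold, 1.17 to 1.24). In the reference annotation 98.8% of the exon bases of RpL7-like are shared with another gene, so its reads are not certain to be its own.

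**Figure D4:**
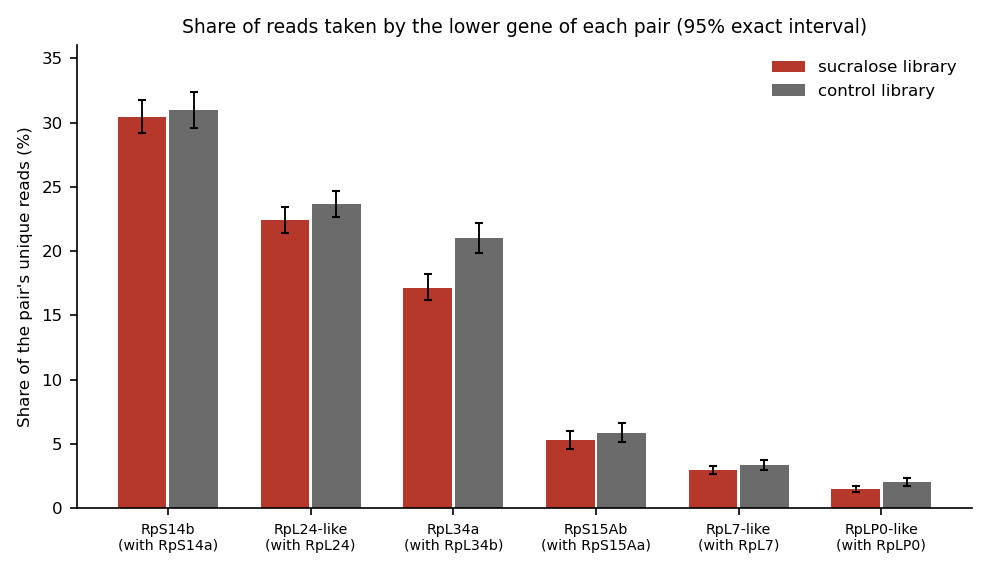
Share of the unique reads of each gene pair (y axis, percent) that came from the lower gene, for the 6 pairs whose lower gene passed the floor (x axis); red bars are the sucralose library, grey bars the control library, and black bars are exact 95% binomial intervals. The share of RpL34a is 17.2% in the sucralose and 21.0% in the control library and that of RpLP0-like 1.48% in the sucralose and 2.06% in the control library, both with intervals apart, and in the other 4 pairs the intervals overlap.

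The remaining paralogues were almost absent from heads. RpL22-like, known in flies from the testis, had 1 read in the sucralose and 2 reads in the control library, beside 679 and 591 RPKM of RpL22 (1.14-fold, 1.11 to 1.18). RpS5b, known from the female germline, had 12 reads in the sucralose and 5 reads in the control library, a fold of 2.35 whose interval runs from 0.772 to 8.53, beside 665 and 558 RPKM of RpS5a (1.19-fold, 1.14 to 1.23). RpS19b had 1 read in each library. RpS28-like had 1 read in the sucralose library and was not listed in the control library, beside 993 and 831 RPKM of RpS28b (1.19-fold, 1.14 to 1.24). Of the germline markers vas, nos, osk, bam, aub and piwi, nos matched no identifier, vas and bam had no reads, and the other 3 summed to 45 reads in the sucralose and 26 reads in the control library. RpL10Ab, whose partner RpL10Aa was not matched, had 683 RPKM in the sucralose and 638 RPKM in the control library (1.07-fold, 1.03 to 1.10), and RpL37-1 was 1.24-fold higher (1.20 to 1.29).

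Genes that make or serve the ribosome were followed as lists. Of 26 assembly factor genes past the floor, 20 (76.9%) were above 0, against 49.6% of all genes past the floor, with a median log2 difference of 0.11. At least 25% higher were 6 (23.1%), against 8.44% of all genes, and at least 20% lower was 1 (3.85%), against 11.4%. The highest was l(1)G0020, with 137 reads in the sucralose and 90 reads in the control library (1.49-fold, 1.14 to 1.97). The box C/D snoRNP core gene nop5 had 204 reads in the sucralose and 140 reads in the control library (1.43-fold, 1.15 to 1.79). Nop60B, the pseudouridine synthase of the H/ACA particles that modify ribosomal RNA, had 292 and 221 reads in the sucralose and control libraries (1.30-fold, 1.08 to 1.55). The most abundant, the nucleolar GTPase gene Non1, was 1.13-fold higher (1.08 to 1.18). Intervals lay wholly above 1 for 5 of the 26 (19.2%), near the 17.3% of all genes.

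RNA polymerase I, which transcribes the ribosomal RNA precursor, showed no common direction. Of 12 genes of its subunits and factors, 7 (58.3%) were above 0, against 49.6% of all genes, with a median of 0.07. Polr1A, the largest subunit, had 337 reads in the sucralose and 267 reads in the control library (1.24-fold, 1.05 to 1.46), whereas Polr1E had 151 reads in the sucralose and 198 reads in the control library (0.748-fold, 0.601 to 0.929). Tif-IA, the growth-regulated initiation factor of this polymerase, had 572 and 658 reads in the sucralose and control libraries (0.853-fold, 0.761 to 0.955).

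Translation factors had medians close to 0. Of 31 initiation factor genes, 14 (45.2%) were above 0, against 49.6% of all genes. None was 25% higher and 1 was 20% lower (8.44% and 11.4% of all genes). The list had a median of -0.02 and a summed fold of 1.005 (0.994 to 1.02). The RNA helicase gene eIF4A, the most abundant, was 1.06-fold higher (1.04 to 1.09), and the eIF3 subunit gene eIF3l was at 0.817-fold (0.774 to 0.861). The eIF3 subunit gene eIF3k was at 0.826-fold (0.743 to 0.920) and eIF2Bbeta, a subunit of the guanine exchange factor of eIF2, at 0.797-fold (0.691 to 0.918). The 7 elongation and termination genes had a median of -0.02, which is above 0 with totals that leave out the 20 most abundant genes. Among them eEF2, the translocation factor, had 30548 reads in the sucralose and 30127 reads in the control library (0.995-fold, 0.979 to 1.01; its sign is reversed with upper quartile scaling and with totals that leave out the 20 most abundant genes), at a level like that of ribosomal proteins (1020.2 RPKM in the sucralose and 1022 RPKM in the control library). The elongation factor gene eEF1gamma was 1.16-fold higher (1.12 to 1.20), eEF1delta was at 0.858-fold (0.779 to 0.944), and the release factor gene eRF1 at 0.865-fold (0.803 to 0.931). Rack1, a scaffold protein bound to the small subunit, had 582 RPKM in the sucralose and 537 RPKM in the control library (1.08-fold, 1.05 to 1.11), and the 9 ribosome-associated genes as a list had a median of 0.02. In that list Srp14 was at 1.11-fold (0.856 to 1.44) and Srp54 at 0.876-fold (0.778 to 0.985), both of the signal recognition particle.

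Of 15 regulators of ribosomal protein production past the floor, 11 (73.3%) were above 0, against 49.6% of all genes, and 3 (20%) at least 25% higher, against 8.44%, with a median of 0.14. The highest were REPTOR (1.41-fold, 1.31 to 1.52), a transcription factor that acts when TOR is low, and Xrp1, a factor known for its induction in Minute flies, with 7710 reads in the sucralose and 5384 reads in the control library (1.41-fold, 1.36 to 1.45). Thor, the 4E-BP translation inhibitor, was 1.32-fold higher (1.21 to 1.43). Myc, which drives transcription of ribosome genes in growing cells, had 690 reads in the sucralose and 562 reads in the control library (1.20-fold, 1.08 to 1.35), though 61.2% of its exon bases are shared with another gene. The gene larp, whose human relative LARP1 binds mRNAs of ribosomal proteins, was 1.07-fold higher (1.03 to 1.12). Among factors that act at fly ribosomal protein promoters, Trf2 was at 1.09-fold (1.01 to 1.18), M1BP at 1.11-fold (0.928 to 1.32) and Dref at 1.06-fold (0.918 to 1.21). Each of these intervals holds 1.16, the fold of the summed main genes, and those of M1BP and Dref also hold 1. S6k and Tor matched no identifier with reads and have no value here.

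**Figure D5:**
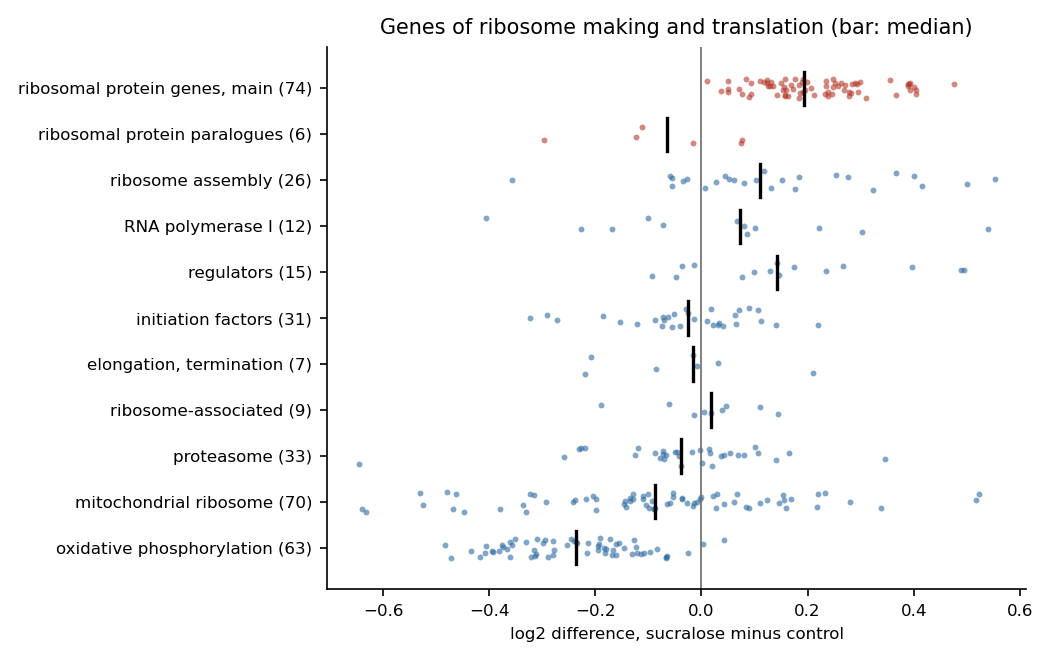
Log2 difference, sucralose minus control (x axis), of each gene past the floor in lists of ribosome making, translation and comparison (rows, number of genes in parentheses); points are genes, spread vertically at random, and black bars are medians. The 74 main ribosomal protein genes (red, top row) all lie above 0 with a median of 0.19; initiation factors lie around 0 (median -0.02) and oxidative phosphorylation genes mostly below it (median -0.24).

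Other protein complexes with widely expressed genes had medians below 0. The mitochondrial ribosome, which translates the mRNAs of the mitochondrial genome, had 22 of 70 genes above 0 (31.4%), against 49.6% of all genes. The list had a median of -0.09 and a summed fold of 0.936 (0.913 to 0.960). Of its genes with at least 200 summed reads, mRpL9 was lowest at 0.637-fold (0.513 to 0.787), with mRpL52 at 0.680-fold and mRpS9 at 0.693-fold, and the most abundant, mRpL28, was at 1.05-fold (0.924 to 1.19). Genes of oxidative phosphorylation had 2 of 63 above 0 (3.17%) and a median of -0.24, with ATPsynC at 0.824-fold (0.804 to 0.843). ND-ACP (0.714-fold), ND-B15 (0.717-fold) and ND-MLRQ (0.739-fold) were the lowest there. The proteasome had 14 of 33 genes above 0 (42.4%) and a median of -0.04, the closest of these lists to the values over all genes. Prosalpha2 was at 1.03-fold, Prosalpha4 at 0.834-fold, Rpn9 at 0.850-fold and Rpt6 at 0.854-fold.

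In the reference annotation, 7 of the 80 members overlap another gene over at least 20% of their exon bases. The main genes among them, picked outside the naming rule, were RpS9 (50.3%), RpL22 (34.3%), RpL23A (31.9%), RpL30 (25.1%), RpL24 (21.6%) and RpL3 (21.0%). Without these 7 the median log2 difference of the members was 0.19, as with them.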

How the data were processed

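Head RNA was isolated with Trizol and made into Illumina libraries, per the labels' protocols, with 1 library per diet. The authors deposited 1 table per library. Per the file headers, counts are of unique reads for each gene, not normalized; the RPKM column scales the deposited counts by gene length and total, and the coverage column gives the percent of a gene model's bases under reads, as deposited. No aligner, build, annotation or strandedness is named (not given in the sources used here), so no coordinates are printed. Unique counting may lose reads of near-identical copies, and overlapping genes may share reads.

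Symbols came from a table of gene identifiers; 496 of 12083 genes had none (6.12% of sucralose and 6.07% of control reads). Scaling of the counts used trimmed means of M-values in edgeR 4.0.16 (R 4.3.3; factors 1.00 and 0.998), with a pseudocount of 0.5 CPM and a floor of 50 summed reads. The rest used Python 3.11.15, pandas 2.3.3, numpy 2.4.6 and SciPy 1.17.1. Reads carry no molecular identifiers and PCR copies are not separate molecules, so intervals cover counting error only; a count of 0 allows up to 3 reads. Exon overlap was read from the BDGP6.54 annotation. The calculation of folds and intervals was tested on simulated counts with counting error only. That test did not cover the TMM scaling, the division into main genes and paralogues or the lists.

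Members and lists were chosen with earlier results of these data known, and the groups by place in the ribosome after the values were seen. The rule for named members takes the 8 highest and 8 lowest with at least 200 reads, the 5 of highest RPKM, genes of proteins with more than 1 gene, and a fixed set; other lists give up to 3 by size and the most abundant. For 1 member no single value is reported here. Cell type markers are given as summed folds. A main gene also needed 100 RPKM, which affects RpS10a alone. Alternatives were other scalings, pseudocounts, floors and the deposited RPKM.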

Additional observations from a re-analysis of the deposited data

How the results depend on the processing

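No paired analysis was possible because each diet has 1 library. All 74 main genes stayed above 0 under each of 10 alternatives: 5 other scalings, pseudocounts of 0.1 and 5, no floor, a floor of 200 reads and the deposited RPKM. The median log2 difference of the members ranged from 0.19 to 0.21, including main genes alone, the mean and the members without shared exon bases. The number of members at least 25% higher was 11 or 12. The fold of summed member reads was 1.16 with upper quartile scaling and 1.17 with totals that leave out the 20 most abundant genes, by construction of the scale. The paralogues' median stayed between -0.07 and -0.00. The background counts moved more. Genes at least 25% higher numbered 750 as reported, 412 with a pseudocount of 5, 1429 with no floor and 457 with a floor of 200 reads. Those at least 20% lower, an alternative chosen after seeing the data, numbered 1012 as reported and 1702 with no floor. Single named genes were followed under these settings other than no floor and the floor of 200 reads. Of 840 such values, 833 moved by less than their counting error and 7 by more. None of these named genes whose interval excluded 1 changed sign; among those whose interval included 1, RpL24-like did with totals that leave out the 20 most abundant genes, and eEF2 with those totals and with upper quartile scaling. Depth limits the paralogues and assembly factors, whose intervals are wide, and the single library per diet limits every comparison.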

Other observations

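The share of a gene model that reads covered differed between the libraries for some abundant members. RpS25 was covered over 88.3% of its bases in the sucralose and 72.6% in the control library, with a fold of 1.18. RpL17 was covered over 87.0% and 75.5%, RpS19a over 97.1% and 87.0%, and RpS23 over 97.8% and 88.2%, sucralose library first. The reverse was seen for RpL13, with 69.1% in the sucralose and 77.2% in the control library, and for RpS6, with 79.0% in the sucralose and 85.8% in the control library. These genes were picked after their values were seen, and which bases were covered cannot be read from the files.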
